A study of Mus musculus with 4 samples.

Results

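Regions of open chromatin at the ends of protein-coding genes that were called in both livers of 1 genotype and in neither liver of the other numbered 304, of 38853 merged regions in all. They were chosen by their peak calls: overlapping or touching peaks from all lists were joined into regions, those within 1 kb of either end of a protein-coding gene were kept (10571 regions), and from these the ones with a peak in both PA and neither WT library (177, PA-only) or in both WT and neither PA library (127, WT-only) were taken. PA mice carried hypomorphic Pcca (labelled Pcca-/-, A138T), which encodes a subunit of the mitochondrial enzyme propionyl-CoA carboxylase, and WT mice did not. Both groups were females of 11 weeks on the FVB background, kept on standard chow, and each gave 2 libraries from whole frozen liver. The assay was ATAC-seq, in which the Tn5 transposase inserts adaptors into accessible DNA. Their calls are given as a description with no test, since the same calls made the choice and 2 libraries against 2 allow no exact permutation p below 0.333. In whole liver, fewer cells of a type and less accessible DNA per cell cannot be told apart.

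The start of a gene carries its promoter, where transcription factors and RNA polymerase II assemble and nucleosomes are often displaced, so that Tn5 can cut there. Many promoters of broadly expressed genes lie in CpG islands, stretches rich in the dinucleotide CG, and are open in most cell types. Promoters of tissue-specific genes, including many genes of liver plasma proteins and enzymes, are often poor in CG and depend more on cell type and hormonal or metabolic state. The far end of a gene, where the transcript is cleaved, is less often open.

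The promoter DNA of 6 restricted regions shows both kinds of start. Each line gives the 200 bases before the annotated start, from RefSeq (GRCm38.p6), 5′ to 3′ along the gene, with every CG dinucleotide in capitals. Those of Pon1 (chr6:5193947-5194146 on the minus strand), Lcn2 (chr2:32387740-32387939 on the minus strand) and Zpr1 (chr9:46272864-46273063 on the plus strand) were called in PA livers alone. Those of Fabp1 (chr6:71199679-71199878 on the plus strand), C1qb (chr4:136886201-136886400 on the minus strand) and Bcl6 (chr16:23988853-23989052 on the minus strand) were called in WT livers alone.
Pon1: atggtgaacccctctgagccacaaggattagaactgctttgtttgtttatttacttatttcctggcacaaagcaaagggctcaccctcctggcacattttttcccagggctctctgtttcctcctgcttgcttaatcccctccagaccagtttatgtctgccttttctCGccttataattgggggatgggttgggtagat
Lcn2: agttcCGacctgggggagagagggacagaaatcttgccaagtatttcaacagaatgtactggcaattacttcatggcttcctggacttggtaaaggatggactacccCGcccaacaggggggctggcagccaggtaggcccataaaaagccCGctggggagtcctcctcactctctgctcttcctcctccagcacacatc
Zpr1: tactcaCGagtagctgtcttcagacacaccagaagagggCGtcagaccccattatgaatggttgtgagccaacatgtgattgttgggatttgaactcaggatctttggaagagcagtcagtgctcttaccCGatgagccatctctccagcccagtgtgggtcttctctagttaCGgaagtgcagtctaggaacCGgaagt
Fabp1: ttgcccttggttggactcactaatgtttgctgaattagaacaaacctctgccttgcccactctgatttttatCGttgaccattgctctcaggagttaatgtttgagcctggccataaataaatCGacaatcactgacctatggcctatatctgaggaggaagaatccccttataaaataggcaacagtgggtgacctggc
C1qb: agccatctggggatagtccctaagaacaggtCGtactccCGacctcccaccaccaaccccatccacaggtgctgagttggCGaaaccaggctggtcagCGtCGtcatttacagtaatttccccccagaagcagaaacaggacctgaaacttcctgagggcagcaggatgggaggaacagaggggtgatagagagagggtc
Bcl6: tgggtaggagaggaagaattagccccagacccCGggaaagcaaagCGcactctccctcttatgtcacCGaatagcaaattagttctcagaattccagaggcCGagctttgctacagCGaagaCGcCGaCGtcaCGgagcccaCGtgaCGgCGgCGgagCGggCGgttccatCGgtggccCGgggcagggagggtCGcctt

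The stretch before Bcl6 held 18 CG dinucleotides, those before Zpr1 and C1qb held 5 each, that before Lcn2 held 3, that before Fabp1 held 2 and that before Pon1 held 1. Of the 200 bases shown, 110 lay inside the called region at Pon1, and all 200 did at the other genes. Fabp1 was the only gene of these 6 with the letters TATAAA on the coding strand of its 300-base window, beginning at position -30 from the start.

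The 304 regions were a small share of what the lists called at gene ends. PA-only regions made up 1.67% of the 10571 gene-end regions, against 3.38% PA-only among all 38853 regions. WT-only regions made up 1.20% of gene-end regions, against 1.98% among all regions. With every list held to the length of the shortest, PA-only regions numbered 124 and WT-only ones 138, so the larger number was then on the WT side. The first lines of each list were kept for this, and the meaning of their order is not explained in the sources used here. Nothing is read from these shares, since the calls they count are those that chose the members. Libraries PA 1 and PA 2 had calls at 9072 and 9308 gene-end regions, and WT 1 and WT 2 at 9064 and 9060. PA 2 had the longest list, with 29765 peaks, against 25683 in PA 1, 26280 in WT 1 and 25941 in WT 2, and read depth is unknown. Just inside the limit of 1 kb lay the regions of Acy3 (991 bp), Gria3 (985 bp) and Spata17 (972 bp), and just outside lay restricted regions of Guca1b (1010 bp), Hs1bp3 (1034 bp) and Lrp12 (1054 bp).

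Most restricted regions sat at the start of a gene, but less often than constitutive ones. Where the strand of the gene was known, 86.2% of PA-only regions (119 of 138, 95% interval 79.3 to 91.5) and 84.2% of WT-only regions (85 of 101, 75.6 to 90.7) lay at a start. Of gene-end regions called in all 4 libraries, 97.5% did (6249 of 6408, 97.1 to 97.9). Regions at gene ends called in 1 PA and 1 WT library had a share of 84.9% (304 of 358, 80.8 to 88.5), inside the intervals of both restricted kinds, and regions called in 3 libraries 89.7% (628 of 700). Only the far end of a gene was near 13.8% of PA-only and 15.8% of WT-only regions, against 2.48% of regions called in all 4 libraries. For 39 PA-only and 26 WT-only regions the strand was not known. The intervals cover the counting of regions only, and no test over libraries was run on these shares.

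Within 1 kb of an annotated start, restricted peaks were centred on it. Such a start was present for 116 PA-only regions (65.5%) and 80 WT-only regions (63.0%). The median centre stood at -18.5 bp (quartiles -64.2 and 68) in PA-only regions and at -14.5 bp (quartiles -82.5 and 64.8) in WT-only regions, where negative values are upstream. The start itself lay inside the region in 86 PA-only cases (74.1%) and in 57 WT-only cases (71.2%), against 71.9% of regions called in 1 PA and 1 WT library, 62.6% of those called in 1 library, 79.0% of those called in 3 and 90.4% of those called in all 4. The medians of PA-only and WT-only regions were far closer to each other than the quartiles of either.

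**Figure D1:**
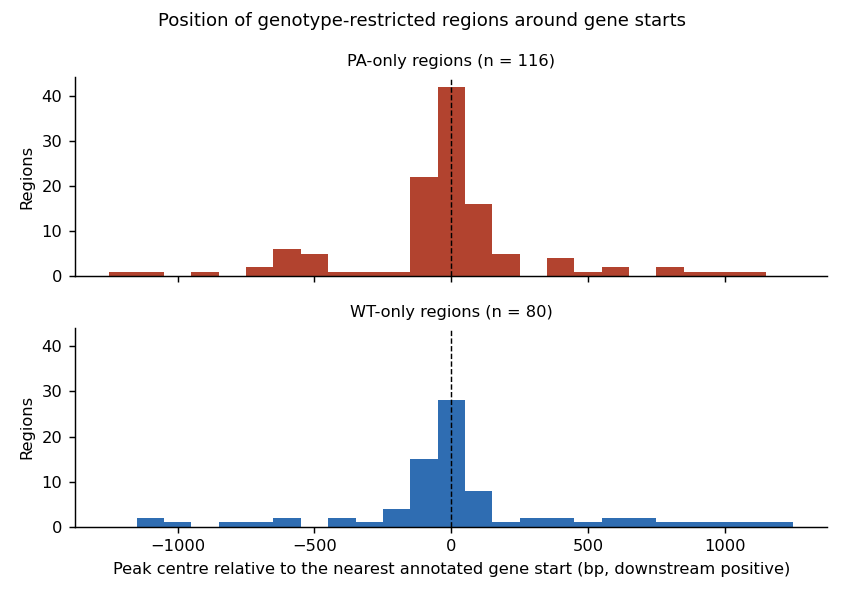
Position of the peak centre, the mean of the 2 libraries, relative to the nearest annotated start (bp, downstream positive, bins of 100 bp) for 116 PA-only (top) and 80 WT-only regions (bottom). Both distributions peak at the start, with medians of -18.5 and -14.5 bp, and have thin tails to about 1.2 kb on either side.

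The promoters at restricted regions were poorer in CG than those at constitutive regions. The measure is the CpG observed over expected ratio, the number of CG dinucleotides times the length over the product of the C and G counts, in a window from 250 bases before to 50 after the start. Its median was 0.660 for 116 PA-only promoters and 0.703 for 80 WT-only promoters, against 0.807 for 6106 promoters at regions called in all 4 libraries and 0.574 for all 21045 promoter windows of the table. A ratio over 0.6 was found for 56.0% of PA-only promoters (65 of 116, interval 46.5 to 65.2) and 61.2% of WT-only promoters (49 of 80, 49.7 to 71.9). The share was 81.4% (80.4 to 82.4) at regions called in all 4 libraries, 63.5% at those called in 3, 60.1% at those called in 1 PA and 1 WT library and 55.5% at those called in 1 library. The shares at regions called in 1 library, or in 1 library of each genotype, lay inside the intervals of both PA-only and WT-only promoters.

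**Figure D2:**
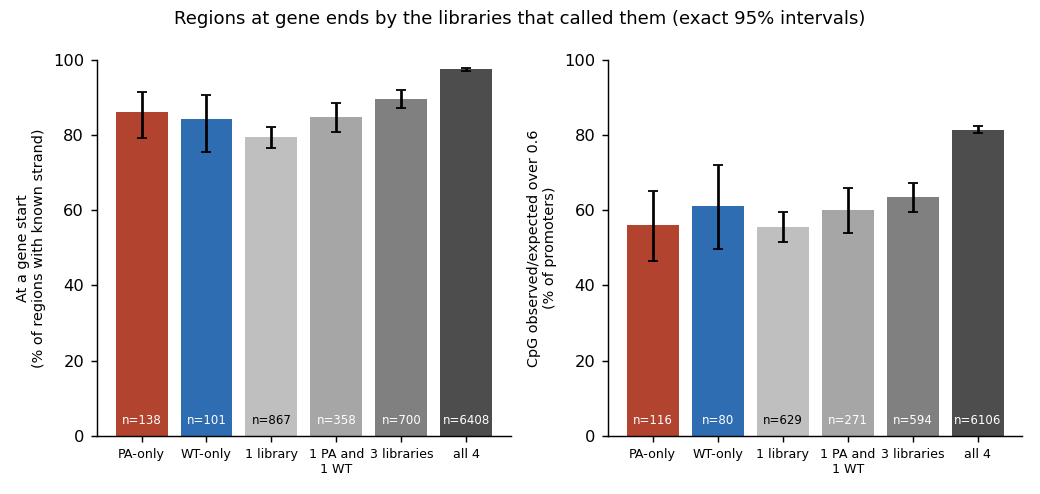
Share of gene-end regions at a gene start (left, % of regions whose gene has a known strand) and share of their promoters with a CpG observed over expected ratio over 0.6 (right, %), by the libraries that called the region, with exact 95% intervals and n in each bar. PA-only (86.2% and 56.0%) and WT-only regions (84.2% and 61.2%) stand beside regions called in 1 PA and 1 WT library (84.9% and 60.1%) and below those called in all 4 (97.5% and 81.4%).

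Known promoter words were found at restricted starts at the following rates, both strands searched. GGGCGG, the GC box of SP1-type factors, was in 56.9% of PA-only and 58.8% of WT-only promoters, against 72.1% at regions called in all 4 libraries and 46.7% of all promoters. CCAAT, the word of NF-Y, was in 33.6% of PA-only promoters (interval 25.1 to 43.0) and 22.5% of WT-only promoters (13.9 to 33.2), against 42.7% at regions called in all 4 libraries and 38.5% of all promoters. CCGGAAG, a word of ETS factors, was in 12.9% of PA-only and 6.25% of WT-only promoters, against 20.5% and 11.7%. CACGTG, the E-box bound by CLOCK, MYC and USF proteins, was in 12.1% of PA-only (6.76 to 19.4) and 18.8% of WT-only promoters (10.9 to 29.0), against 11% and 7.91%. At regions called in 3 libraries, in 1 PA and 1 WT library and in 1 library, GGGCGG was in 60.6%, 58.7% and 56.4% of promoters. CCAAT was in 30.3%, 33.9% and 31.3% of them, CCGGAAG in 14.3%, 14.8% and 11.4% and CACGTG in 10.8%, 9.96% and 9.06%. The intervals of PA-only and WT-only promoters overlapped for each of these words.

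The rarer words were at few restricted starts. TATAAA was in 9.48% of PA-only and 10% of WT-only promoters, against 6.13% at regions called in all 4 libraries and 12.7% of all promoters. Its shares at regions called in 3 libraries, in 1 PA and 1 WT library and in 1 library were 9.93%, 9.59% and 9.7%. TGACGTCA, the cyclic AMP response element, was in 3 of 116 PA-only and 2 of 80 WT-only promoters, one of them that of Myl6. These are 2.59% and 2.5%, against 2.26% of all promoters. TTCNNNGAA, the STAT word, was in 4 PA-only and 4 WT-only promoters, Bcl6 among the WT-only ones. That is 3.45% (interval 0.947 to 8.59) and 5% (1.38 to 12.3), against 7.76% of all promoters, which lies inside both intervals. At regions called in all 4 libraries it was in 6.5%. At those called in 3, in 1 PA and 1 WT library and in 1 library it was in 7.91%, 8.12% and 7%. TGTTTAC, the forkhead word, was in 4 PA-only and 3 WT-only promoters (3.03% of all promoters), and CAAAGTCCA, an HNF4 word, in 1 PA-only and 0 WT-only promoters (0.456%). TTATGTAA, the D-box, was in none of either kind (0.903% of all promoters), with upper bounds of the interval at 3.13% for PA-only and 4.51% for WT-only promoters. The HNF1 palindrome was in 1 PA-only and 0 WT-only promoters (0.0618% of all promoters). The NRF1 palindrome was in 4 PA-only (3.45%, interval 0.947 to 8.59) and 2 WT-only promoters (2.5%, 0.304 to 8.74), that of Onecut1 among them. It was in 2.62% at regions called in all 4 libraries and in 1.34% of all promoters. A match is a string in this window and not a bound site.

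The lists carry no score, so each peak below is given with its place, the percentage of the way down the authors' list, whose order of lines is not explained in the sources used here. The list of plasma protein and lipoprotein genes had 4 PA-only and 0 WT-only genes among 64. It does not hold every such gene. Outside it, Orm3 and Serpina7 had a WT-only region, and Gc and Serpina3i a PA-only one. Over all 21631 protein-coding genes, 190 (0.878%) had a PA-only region and 141 (0.652%) had a WT-only region, and nothing is read from the counts of any list beside these, since earlier results were known when the lists were written. Pon1 encodes paraoxonase, an enzyme carried on high-density lipoprotein. Its start was called in PA 1 from -79 to 320 bp, 27% of the way down that list, and in PA 2 from -110 to 289 bp, 14.5% down, and in neither WT library (chr6:5193626-5194056). A second Pon1 peak about 4 kb downstream was called in all 4 libraries, at places of 23.4% and 14% in PA and 19.9% and 23.1% in WT. Zpr1, a zinc finger protein, stands next to the apolipoprotein gene Apoa5, and 1 region covered its start and lay within 1 kb of the far end of Apoa5. Zpr1 was called from -179 to 220 bp in PA 1 (13.9% down) and from -246 to 153 bp in PA 2 (10.2% down), and the nearest WT peak was 11231 bases away (chr9:46272818-46273284). The other PA-only regions of this list lay at far ends, that of Ahsg, fetuin-A, 389 bp from the end and that of Itih2, an inter-alpha-trypsin inhibitor heavy chain, over the end itself. Of these 64 genes, 38 and 43 had a gene-end call in PA 1 and PA 2 and 36 and 41 in WT 1 and WT 2, so the libraries overlapped.

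**Figure D3:**
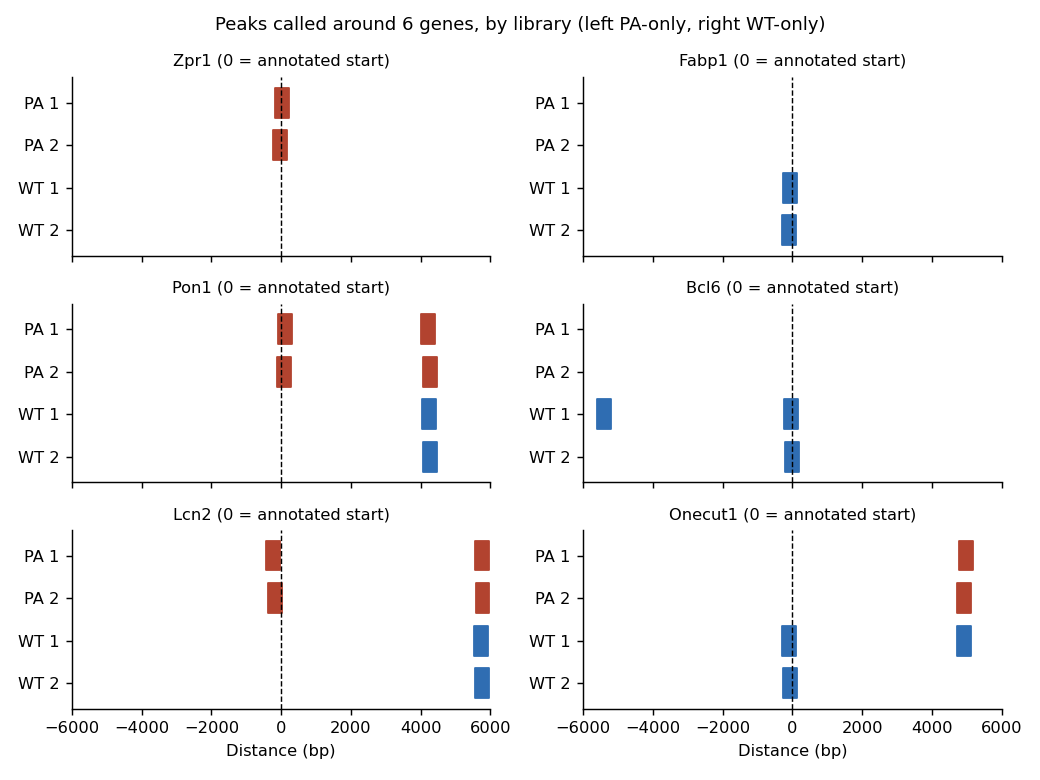
Peaks called within 6 kb of the annotated start of 6 genes, as distance from the start (bp, in the direction of transcription), 1 row per library; left column PA-only at the start, right column WT-only. Peaks at the starts of Zpr1, Pon1 and Lcn2 are present in both PA rows alone and those of Fabp1, Bcl6 and Onecut1 in both WT rows alone, while Pon1 and Lcn2 have a downstream peak in all 4 rows.

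Of 22 genes of nitrogen handling, Arg1 and Slc38a2 had a PA-only region and Slc38a2 a WT-only one, and of 40 acute phase genes, Lbp and Lcn2 had a PA-only region and Lbp a WT-only one, beside shares of 0.878% PA-only and 0.652% WT-only over all genes. Arg1 encodes the arginase that splits arginine into urea and ornithine. Its peak lay over the gene end of higher coordinate, at places of 31.6% in PA 1 and 21.8% in PA 2 (chr10:24927308-24927777), and the nearest WT peak was 20618 bases away. Lcn2, lipocalin 2, an iron-siderophore binding protein of the acute phase, was called from -434 to -35 bp in PA 1 (52.1% down) and from -385 to 14 bp in PA 2 (42.5% down). Its neighbouring peak some 5.5 kb downstream was called in all 4 libraries. The Cyp2a4 region, at the far end of a female-biased steroid hydroxylase gene, stood low in the lists (96.2% and 76.1%). Cyp2a4 has close paralogs, and reads shared with them could be placed on either copy. For Arg1, Lcn2 and Cyp2a4, neither WT list had a peak at either end of the gene.

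WT-only regions covered the starts of 4 further metabolic or regulatory genes, each from a separate list. Each was the only WT-only gene of its list, Fabp1 of 26 genes, Bcl6 of 30, Onecut1 of 22 and Agpat2 of 33. Over all genes the shares were 0.652% WT-only and 0.878% PA-only. The list of Bcl6, sex-biased liver genes, also had 1 PA-only gene, Cyp2a4. Fabp1, the liver fatty acid binding protein and a target of PPAR-alpha, had no PA peak within 9613 bases of its region (chr6:71199574-71200021). Its WT peaks spanned -257 to 142 bp in WT 1 (30.9% down) and -305 to 94 bp in WT 2 (26.9% down). Bcl6, a transcriptional repressor with sex-dependent expression in mouse liver, had WT peaks from -233 to 166 bp (25.7% down) and -216 to 183 bp (14.4% down), with the nearest PA peak 16184 bases away (chr16:23988669-23989085). Onecut1, the liver transcription factor HNF6, had no PA peak at its start, where WT peaks stood 30.4% and 19.4% down, while a peak about 5 kb downstream was called in PA 1, PA 2 and WT 1. Agpat2, an acyltransferase of phosphatidic acid synthesis, was called at its start in WT 1 and WT 2 (18.9% and 11.9% down). A peak inside Agpat2, 3346 bp and 3350 bp from the start in WT 1 and WT 2, was also called in PA 2, at 3362 bp, and not in PA 1.

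Markers of Kupffer cells, the macrophages of the liver, had restricted regions in both directions, at 1 PA-only and 3 WT-only genes of 17, beside 0.878% and 0.652% over all genes. Adgre1, the gene of the macrophage marker F4/80, had a PA-only region low in the lists (94.8% and 97.7%). C1qb and C1qc, neighbouring genes of the complement component C1q, and Fcgr2b, an inhibitory Fc receptor, each had a WT-only region over the start. The places were 65.9% and 78.8% for C1qb, 69.8% and 50.8% for C1qc and 64.0% and 56.4% for Fcgr2b, in WT 1 and WT 2. With every list held to the length of the shortest, the Adgre1 region was lost and those of C1qb, C1qc and Fcgr2b remained. In the upper 50% of each list none of these regions remained. Over the 17 genes of the list, 3 and 5 had a gene-end call in PA 1 and PA 2, against 6 and 5 in WT 1 and WT 2. The part of these cells in the restricted calls was not tested. Other restricted marker regions were those of Ecm1 (stellate cells, PA-only) and Zap70 (lymphocytes, WT-only, over the far end). Hepatocyte markers, which define the labelled tissue, had calls for 15 and 14 of 18 genes in PA 1 and PA 2 and for 14 and 13 in WT 1 and WT 2, and none of the 18 had a restricted region.

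Several lists had no gene with a restricted region. These were propionate and branched-chain amino acid breakdown, glucose metabolism and insulin signalling, bile acid and xenobiotic metabolism, the circadian clock, stress responses, histone acylation writers and erasers, and the markers of hepatocytes, endothelium, bile ducts, and neutrophil and erythroid cells. For 28 genes of propionate and branched-chain amino acid breakdown, 22 had calls in all 4 libraries. For 35 writers and erasers of histone acylation, which include Kat8, the H4K16 acetyltransferase, 25 did. Over all 496 list genes 3.83% had a restricted region, and over all 21631 protein-coding genes 1.47% did. Nothing is read from this difference, since 145 of the list genes and 10455 of all genes had no gene-end call in any library.

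Across all restricted regions, the PA-only ones standing highest in both PA lists and over 1 kb from any WT peak were, after Zpr1, those of Wbp2, Sdr42e1, Pon1, Mief2, Tedc2, Ahsg, Lasp1, Zfp608, Arg1, Cxxc5 and Bcas1. Wbp2, a transcriptional coactivator that binds WW domains, had its peak centre at -66 bp, 12.2% and 14.4% down the PA 1 and PA 2 lists, with the nearest WT peak 22868 bases away. Mief2, a receptor for the mitochondrial fission protein DRP1, shared its region with the next gene Flii, and stood 21.2% and 22.5% down. The corresponding WT-only regions were those of Epb41l4b, Plxnb2, Myl6, Agpat2, Mettl7b, Bcl6, Zbtb39, Onecut1, Zap70, Fabp1, Orm3 and Enpp2. Plxnb2, a semaphorin receptor, had its peak centre at -60 bp from a start and stood 16.3% and 13.7% down the WT 1 and WT 2 lists, with the nearest PA peak 15203 bases away. Myl6, a myosin light chain, shared its region with Myl6b, whose genes' ends were also called in both PA libraries at another place. A region with ends of more than 1 gene was PA-only 13 times (7.34%) and WT-only 15 times (11.8%), against 10.8% of regions called in 1 PA and 1 WT library, 9.39% of those called in 1 library, 12.2% of those called in 3 and 16.2% of those called in all 4. Further ones were Smarcd1 with Asic1 and 2310039H08Rik with Rpl7l1 (PA-only), and Cul7 with Mrpl2 and Gorasp1 with Ttc21a (WT-only).

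A ratio at or under 0.4 was found for 18 of 86 PA-only regions over a start (20.9%, interval 12.9 to 31.0) and 16 of 57 WT-only ones (28.1%, 17 to 41.5). The share was 21% for regions over a start called in 1 PA and 1 WT library, 20.2% for those called in 3, 24.6% for those called in 1, 6.24% for those called in all 4 and 38.9% for all promoters. The first 3 of these shares lay inside the intervals of both PA-only and WT-only regions. The 18 PA-only genes were Pon1, Gsta2, Tuba8, Gc, Itga4, Lcn2, Gstm3, Mab21l4, Cybc1, Serpina3i, Mlkl, Reep1, Hpgds, Bicd1, Tfpi, Slc24a5, Nfe2l3 and Lrrc39. Gc, the vitamin D binding protein gene, had a WT peak 968 bases from its region. Gsta2, a glutathione transferase gene, was called at its ends in both WT libraries, and a region called in all 4 libraries lay 714 bases away. The 16 WT-only genes were Mettl7b, Fabp1, Ces3b, Tnfrsf14, Aldh3b3, Extl2, Fcgr2b, C1qc, Serpina7, C1qb, Gm12250, Smim6, Acpp, Apela, Tank and Sycp2. Gsta2 and Gstm3 belong to families of near-identical genes, so reads there could be split between copies.

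A subset of restricted regions had a peak of the other genotype beside them. One was found within 1 kb of 33 PA-only regions (18.6%) and of 24 WT-only regions (18.9%). The median distance to the nearest such peak was 14941 bases for PA-only and 8754 bases for WT-only regions. The 57 regions with a near neighbour lay at a start in 97.9% of cases with known strand (46 of 47), and 77.8% of their promoters had a CpG ratio over 0.6 (28 of 36, interval 60.8 to 89.9). The 247 others lay at a start in 82.3% (158 of 192), and 52.3% of their promoters passed 0.6 (80 of 153, interval 44.1 to 60.4). Of the 57, 27 (47.4%) had each of their peaks in the upper 50%, against 39 of the 247 (15.8%).

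At 13 genes restricted regions of opposite kind stood side by side, 10 to 347 bases apart. They were Capn5, Ctbp1, Lbp, Map4k3, Mga, Pls1, Ralgps2, Rictor, Slc38a2, Stmn1, Taf5, Ugp2 and Wif1, and 26 of the 304 regions belonged to these pairs. At Ugp2, which encodes the enzyme that makes UDP-glucose for glycogen, PA peaks ran from -239 to 160 bp in PA 1 and -238 to 161 bp in PA 2. WT peaks at Ugp2 ran from 498 to 897 bp in WT 1 and 497 to 896 bp in WT 2, and all 4 stood 14.4% to 19.2% down their lists. These Ugp2 distances are from the annotated start under the PA-only region. The WT-only region lay over another annotated start of Ugp2, with its centre 59 bp downstream of that start. At Slc38a2, an amino acid transporter, PA peaks began at 368 and 514 bp and both WT peaks at -228 bp. At Rictor, a subunit of mTOR complex 2, PA peaks began at -303 and -203 bp and WT peaks at -766 and -776 bp. Lbp, the lipopolysaccharide binding protein of the acute phase, had peaks high in every list, 9.35% and 8.54% down in PA and 9.01% and 18.5% in WT, with 51 bases between the regions. Where the strand was known, the PA peak was the upstream one at 7 genes and the downstream one at 3, and the centres of the 13 pairs were 427 to 759 bp apart (median 640 bp).

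**Figure D4:**
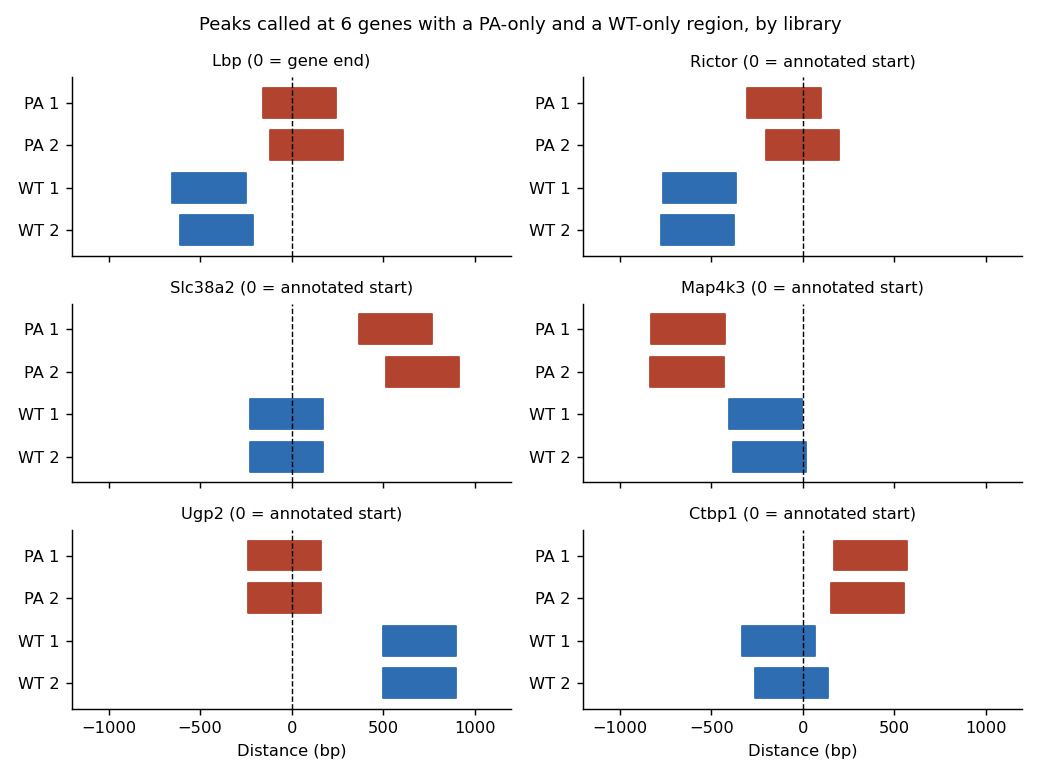
Peaks called within 1.2 kb of the annotated start nearest the PA-only region, at 6 of the 13 genes with a restricted region of each kind. For Lbp, a gene end in genome order is used. Distances are in bp, in the direction of transcription except at Lbp, with 1 row per library. At Ugp2 the WT-only region covers another annotated start. In every panel all 4 libraries have a peak, and the PA peaks and the WT peaks stand side by side with no overlap.

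Each list had a smallest spacing between its peak centres, set here beside the distances within these pairs. Within a list no 2 peak centres were closer than 794 bp in PA 1, 802 bp in PA 2, 764 bp in WT 1 and 771 bp in WT 2. The centres of all 13 pairs were closer to each other than the smallest spacing in any list. The part of this spacing in the pairs was not tested. Over all members, 26 had a peak in both libraries of the other genotype closer than that library's smallest spacing (14 PA-only and 12 WT-only), and 12 in 1 of them (9 and 3). For the remaining 266 regions (154 PA-only and 112 WT-only) no such peak was present. Of the 26, 25 belonged to the 13 pairs.

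Restricted regions stood low in the lists of the libraries that called them. The median place was 73.3% and 76.8% of the way down PA 1 and PA 2 for PA-only regions, and 67.0% and 60.7% down WT 1 and WT 2 for WT-only regions. Gene-end regions called in all 4 libraries had a median mean place of 23.3%. Place was not computed for other gene-end regions called in fewer libraries, so a low place is not shown to be particular to restricted regions. Both peaks lay in the lower 50% for 131 PA-only (74.0%) and 76 WT-only regions (59.8%), and in the upper 50% for 34 (19.2%) and 32 (25.2%). The centres of the replicate peaks were a median of 33 bp apart in PA-only and 32 bp apart in WT-only regions, a distance that the merging of overlapping peaks limits.

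**Figure D5:**
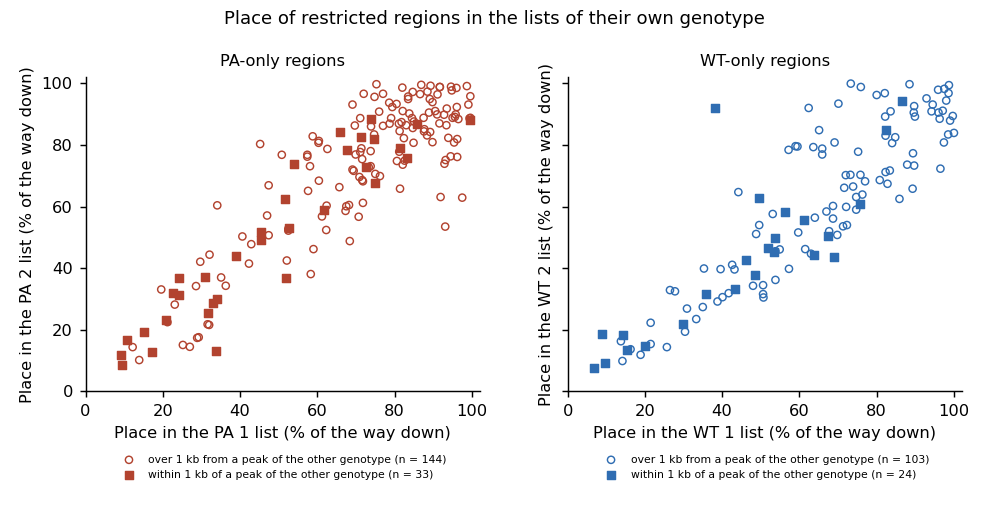
Place of each restricted region in the lists of its own genotype (% of the way down, replicate 1 across, replicate 2 up), PA-only left and WT-only right; filled squares have a peak of the other genotype within 1 kb (33 and 24), open circles do not (144 and 103). Most points lie in the upper right corner, low in both lists, and the squares are spread over the whole range.

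For most restricted regions the gene had no call of the other genotype at either end. This held for 123 of 177 PA-only regions (69.5%, interval 62.1 to 76.2) and 87 of 127 WT-only regions (68.5%, 59.7 to 76.5). Nothing is read from these shares, since the rule bars a call of the other genotype in the region itself. No library had a gene-end call at 10455 of all 21631 protein-coding genes. At 38 PA-only (21.5%) and 28 WT-only regions (22%) both libraries of the other genotype had a call elsewhere at an end of the same gene or genes, as at Myl6. At Rgs8, a regulator of G protein signalling, the PA-only region lay over the start (95.4% and 80.8% down the PA lists). The WT-only region of Rgs8 lay 692 bp from the far end, 45123 bases away, and stood 6.90% and 7.72% down the WT lists, with a PA peak 427 bases from it. Lrch1 had 2 WT-only regions, 192911 bases apart.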

How the data were processed

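ATAC-seq peaks were listed for 4 liver libraries, 2 of PA and 2 of WT mice, grouped by sample title. The authors deposited 1 list of peak positions per library, with chromosome, start and end (GRCm38, mm10) and no score, so the values have no unit and read depth is unknown. Of 107669 peaks, 107655 were 400 bp long. HOMER 4.10, bedtools 2.31.0, cutadapt 3.5, SAMtools 1.17, Bowtie2 2.5.1 and R 4.1.2 are named, per the submitters' processing notes, with no role. Caller, threshold, read filters and Tn5 shift were not given in the sources used here. A list records whether a window passed a threshold, so a longer list can pass at more places.

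Peaks were merged where they overlapped or touched, with Python 3.11.15 and numpy 2.4.6, and a region was called by 1 bp of a peak. Merging was checked on made-up peaks. Gene ends were those of 21631 protein-coding genes of RefSeq GRCm38.p6. Strand and starts came from 21045 RefSeq promoter windows of 17274 of these genes, and the nearest start within 1 kb was used. Distances between regions and peaks are the bases between them. Shares have exact Clopper-Pearson 95% intervals (scipy 1.17.1), which cover the counting of regions only. No test was run, since 4 libraries form 3 pairings and regions are not replicates.

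Genes were named by rule: genes of 20 lists (496 genes, all matched), the 12 regions per genotype highest in both lists and over 1 kb from the other genotype, regions at several genes, genes with several regions, and extremes of distance. Genes named for their CG content and for promoter words were added after their values were seen. The members and lists were chosen with earlier results of these data known. Alternatives are given in the closing section.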

Additional observations from a re-analysis of the deposited data

How the results depend on the processing

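PA-only and WT-only regions, 177 and 127 as reported, stayed within 1.5 times those counts with windows of 500 bp and 2 kb, a merging gap of 100 bp, a call by 200 bp, genes of every type, and without members near the other genotype. With lists held to the shortest the counts were 124 and 138, so the excess of PA-only regions turned round, and 120 and 118 of the reported members remained. This setting and the upper 50% keep the first lines of each list, in an order that is not explained. In the upper 50% of each list the counts were 173 and 52, of which 34 and 32 were reported members. Leaving out a library loosens the condition by construction, and PA-only counts were 391 to 514 and WT-only counts 253 to 448. They were 471 and 253 without PA 1, 514 and 448 without PA 2, 391 and 354 without WT 1, and 431 and 401 without WT 2. The share of members within 1 kb of a start, 64.5%, was 70.2% at 500 bp, 55.6% at 2 kb, 46.6% with genes of every type and 71.1% in the upper 50%. The median distance to the other genotype, 11806 bases, was 9560 with lists of equal length and 20980 in the upper 50%. The share of promoters with a CpG ratio over 0.6, 57.1%, was 72% in the upper 50% and 60.1% with only members over the start. The cause was not tested. The alternatives of the CpG share, apart from the last, and the windows for the start share were chosen after seeing the data. No paired analysis was possible, since the sample labels give no pairing of PA with WT libraries, and no test was run. Without depth, an absent call does not show closed chromatin.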

Other observations

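The regions farthest from any peak of the other genotype were those of Asxl3 (700750 bases), Gm51464 (602190) and Prkd1 (467936) among PA-only and Tbx18 (474507), Wls (344562) and Scgb2b3 (193322) among WT-only regions. The nearest were at Mkrn3 (8 bases), Wif1 (10) and Rgs7 (11) among PA-only and at Wif1 (10), Ctbp1 (14) and Map4k3 (24) among WT-only regions. By chromosome, the lowest share of restricted regions was 1.86% of 430 gene-end regions on chromosome 13 (6 PA-only and 2 WT-only). The highest was 4.51% of 576 on chromosome 9 (16 PA-only and 10 WT-only). Over all gene-end regions 1.67% were PA-only and 1.20% WT-only. These extremes rest on few regions, and nothing is read from them.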
